A study of Mus musculus with 2 samples.

Results

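Csmd3, Nav3, Plxdc2, Atp8a2, Naalad2 and Tjp1 are 6 of the 32285 genes counted in single-cell RNA sequencing (scRNA-seq) of immune cells from the mouse brain. They were grouped as very long genes whose RNA was found mainly in microglia, and the values that chose them were their levels in these same cells, so their order over cell types and their levels in the genotypes are given as descriptions, with no test. The name holds for most of the genes but not for all of them. In mm10, Csmd3 spans 1211 kb, Nav3 775 kb, Atp8a2 559 kb, Plxdc2 400 kb and Tjp1 232 kb, whereas Naalad2 spans 81.0 kb. Among the 3480 genes with a level of at least 50 CPM (counts of a gene per 1000000 counts of the cells) in wild-type microglia rich in the nuclear RNA Malat1, Csmd3 was the longest, Nav3 ranked 6, Atp8a2 ranked 16, Plxdc2 ranked 34, Tjp1 ranked 99 and Naalad2 ranked 589.

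Microglia are the resident macrophages of the brain parenchyma, with motile processes that contact synapses and vessels and engulf debris. Very long genes are mostly intron, take long to transcribe and are best known from neurons, where many of them encode adhesion and cytoskeletal proteins. Malat1 is a long noncoding RNA that is kept in the nucleus, so that its share of a droplet's RNA separates droplets with nuclear RNA from those with little of it. The genes examined here encode proteins of several kinds. Csmd3 encodes a large transmembrane protein with repeated CUB and sushi domains, as found in complement regulators. PLXDC2 is a transmembrane protein with a plexin-like domain. NAALAD2 is a membrane-bound peptidase that can cleave the neuropeptide N-acetylaspartylglutamate (NAAG). ATP8A2 is a P4-ATPase, a flippase that moves phosphatidylserine to the inner leaflet of the membrane. NAV3 binds microtubules, and TJP1 (ZO-1) is a scaffold that links junction proteins to actin.

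The study compared mice homozygous for a locus-impairment allele of Disc1 (Disc1LI/LI), a gene encoding a scaffold protein, with wild-type littermates (Disc1WT/WT). The brains of 6 male mice of 23 weeks were pooled in each group, dissociated enzymatically with the transcription inhibitor actinomycin D (ActD) in both groups, and sorted for CD45low CD11b+ cells. Each pool gave 1 droplet library, so animals cannot be told apart, genotype cannot be separated from library, and intervals cover counting error only. The labels call the cells microglia.

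The Disc1WT/WT library held 7038 barcodes and 33601957 unique molecular identifiers (UMIs), and the Disc1LI/LI library held 7834 barcodes and 47731571 UMIs. Barcodes with under 200 genes or over 10% mitochondrial UMIs were left out, which kept 7032 and 7817 cells, and 12 barcodes were shared between the libraries. Cells with at least 0.5% of UMIs from 6 microglial markers (P2ry12, Gpr34, Tmem119, Siglech, Fcrls and Olfml3) and under 1% from S100a8 and S100a9 were classed as microglia-like, here called microglia. They were Malat1-rich with at least 0.5% of UMIs from Malat1 and Malat1-poor otherwise. Cells with at least 3% of UMIs from S100a8 and S100a9 were classed as neutrophil-like, here called neutrophils, and the remainder as other cells. The label of microglia fits the Disc1WT/WT library more closely than the Disc1LI/LI library. In Disc1WT/WT, 5739 cells (81.6%) were Malat1-rich microglia, 441 (6.27%) Malat1-poor microglia, 116 (1.65%) neutrophils and 736 (10.5%) other cells. In Disc1LI/LI the same classes held 1785 (22.8%), 165 (2.11%), 3622 (46.3%) and 2245 (28.7%) cells. Of the neutrophils, 11 in Disc1WT/WT and 57 in Disc1LI/LI also held at least 0.5% of UMIs from the microglial markers. Malat1-rich cells made up 92.9% of the microglia in Disc1WT/WT and 91.5% in Disc1LI/LI. Disc1 itself had 593 UMIs in Malat1-rich microglia of Disc1WT/WT, a level of 21.2 CPM with a 95% Poisson interval of 19.5 to 23.0, and 18 UMIs in those of Disc1LI/LI, a level of 2.33 (1.38 to 3.69).

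All 6 genes are protein-coding in GENCODE M21. Csmd3 (ENSMUSG00000022311) lies on the minus strand at chr15:47580637-48792063, Nav3 (ENSMUSG00000020181) on the minus strand at chr10:109681259-110456204, and Plxdc2 (ENSMUSG00000026748) on the plus strand at chr2:16356304-16755839. Atp8a2 (ENSMUSG00000021983) lies on the minus strand at chr14:59638540-60197179, Naalad2 (ENSMUSG00000043943) on the minus strand at chr9:18321951-18402995, and Tjp1 (ENSMUSG00000030516) on the minus strand at chr7:65296165-65527781. These loci are almost wholly intron. Exons covered 1.39% of the span of Csmd3, 1.74% of Plxdc2, 1.96% of Nav3, 2.76% of Atp8a2, 3.37% of Tjp1 and 5.86% of Naalad2, in 14 (Plxdc2) to 73 (Csmd3) blocks. The span of a gene can exceed that of its main transcript. The coding transcript with the most bases spans 1211 kb in Csmd3 and 400 kb in Plxdc2, but 448 kb in Atp8a2, 319 kb in Nav3, 75.6 kb in Naalad2 and 75.1 kb in Tjp1. Atp8a2 overlaps 4930563I02Rik on the opposite strand. Whether reads in introns were counted is not given in the sources used here.

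Promoter sequences of RefSeq (GRCm38.p6) matched 2 of the 6 genes, Tjp1 and Naalad2, the shortest of the set. They are shown, as the 250 bases before an annotated start on the minus strand, because no other gene of the set was matched. Their promoters differ in CpG content. Capitals mark GC boxes (GGGCGG, written CCGCCC where it lies on the other strand). All 3 windows lie inside the GENCODE span of their gene, downstream of its outermost start.

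Tjp1, chr7:65371245-65371494, minus strand: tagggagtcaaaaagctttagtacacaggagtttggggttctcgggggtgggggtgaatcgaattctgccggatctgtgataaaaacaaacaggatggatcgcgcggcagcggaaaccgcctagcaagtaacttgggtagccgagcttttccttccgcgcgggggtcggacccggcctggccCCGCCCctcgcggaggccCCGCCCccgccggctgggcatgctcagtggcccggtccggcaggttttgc
Naalad2, chr9:18397539-18397788, minus strand: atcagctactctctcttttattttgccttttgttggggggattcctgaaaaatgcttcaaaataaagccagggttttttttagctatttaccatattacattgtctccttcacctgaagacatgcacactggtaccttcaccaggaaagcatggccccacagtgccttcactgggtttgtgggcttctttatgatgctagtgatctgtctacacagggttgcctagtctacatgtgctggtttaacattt
Naalad2, chr9:18386037-18386286, minus strand: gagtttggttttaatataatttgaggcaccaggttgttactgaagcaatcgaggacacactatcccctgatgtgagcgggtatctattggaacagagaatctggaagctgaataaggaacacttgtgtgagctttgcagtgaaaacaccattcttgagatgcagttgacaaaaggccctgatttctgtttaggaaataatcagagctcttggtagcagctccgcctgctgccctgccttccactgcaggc

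The Tjp1 window held 22 CpG dinucleotides, 63.2% G or C and 2 GC boxes. The Naalad2 windows held 0 and 3 CpG dinucleotides, 42.4% and 46% G or C, and no GC box. Over 32851 such windows of all genes the median was 6 CpG dinucleotides and 52.4% G or C, and 32.7% of windows held a GC box on either strand. The PU.1-type box GAGGAA, present on either strand in 23.3% of all windows, and TATAAA, present in 12.4%, were in none of the 3 windows, which says only that these letters are not there.

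The levels of the 6 genes were first compared across the 4 cell classes, in CPM. The libraries read the 3′ ends of transcripts and the values are not scaled to length, so levels were compared between classes and not between genes. In both libraries 5 of the 6 genes had their highest level in Malat1-rich microglia, and Naalad2 had its highest in Malat1-poor microglia. Between Malat1-rich microglia and the cells outside microglia, the gap was wider in Disc1LI/LI than in Disc1WT/WT for each of the 6 genes. The microglial gate markers did so too, at 15.1% to 17.8% of their Malat1-rich level in Disc1WT/WT neutrophils and 2.82% to 3.29% in Disc1LI/LI. The share of all genes with a wider gap was not taken, so nothing is read from the count.

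**Figure D1:**
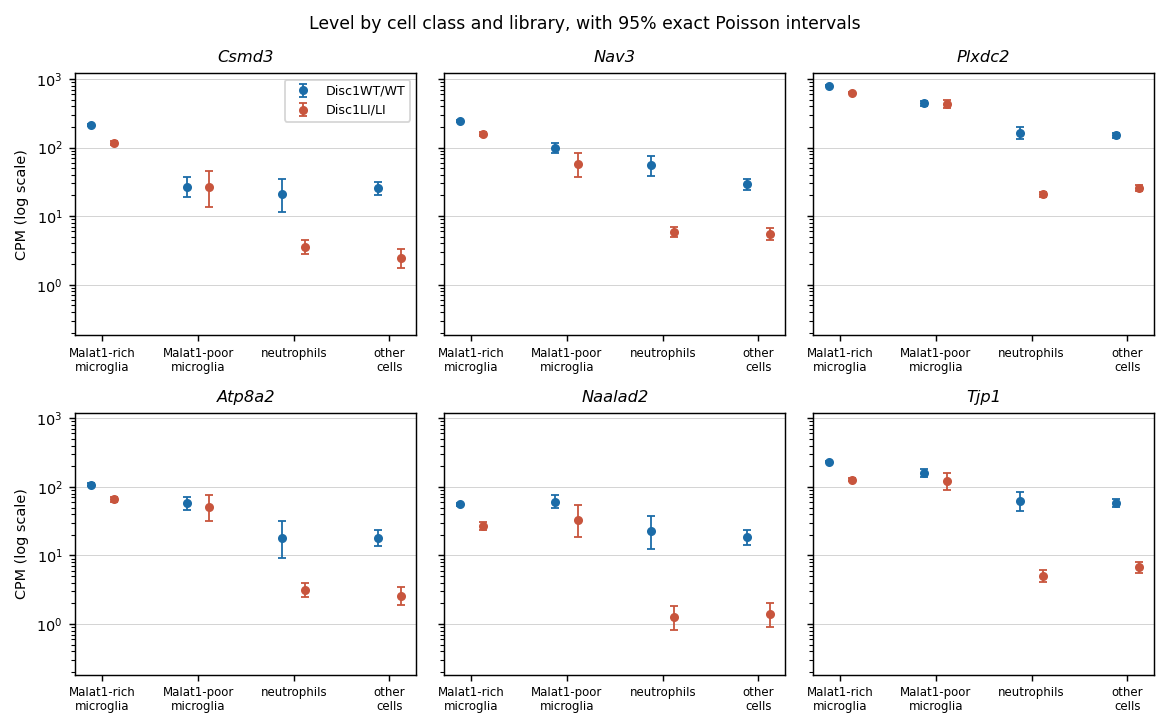
Levels of the 6 genes in 4 cell classes, in CPM on a log axis, with 1 point per class and library and bars for the 95% Poisson interval of counting error. In Malat1-rich microglia each Disc1LI/LI point lies under the Disc1WT/WT point, and in neutrophils and other cells the Disc1LI/LI points lie lower still.

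Csmd3, the longest of the genes, stood far higher in Malat1-rich microglia than in each other class. In Disc1WT/WT its level was 212 CPM (206 to 217) in Malat1-rich microglia, 26.7 (18.8 to 36.8) in Malat1-poor microglia, 21.0 (11.5 to 35.2) in neutrophils and 25.4 (20.5 to 31.3) in other cells. The last 3 classes could not be told apart within counting error. In Disc1LI/LI the levels were 115 (107 to 123), 26.3 (13.6 to 46.0), 3.57 (2.82 to 4.46) and 2.45 (1.78 to 3.29), with neutrophils and other cells again not separable. The Malat1-rich value rests on 5932 UMIs in Disc1WT/WT and 887 in Disc1LI/LI, whereas the Malat1-poor values rest on 37 and 12 UMIs.

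Plxdc2 was detected in the largest share of microglia. In Disc1WT/WT its level was 802 (792 to 813) CPM in Malat1-rich microglia, 439 (405 to 475) in Malat1-poor microglia, 165 (136 to 199) in neutrophils and 151 (138 to 164) in other cells. In Disc1LI/LI it was 634 (617 to 652), 432 (374 to 497), 20.8 (18.9 to 22.8) and 25.5 (23.3 to 28.0). The order from Malat1-rich to Malat1-poor microglia and then to the remaining classes held in both libraries, and neutrophils and other cells did not differ beyond counting error in Disc1WT/WT.

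Of the peptidase and flippase genes, Atp8a2 followed the order of Plxdc2 while Naalad2 did not. Atp8a2 in Disc1WT/WT had 108 (104 to 112) CPM in Malat1-rich microglia, 57.8 (45.8 to 71.9) in Malat1-poor microglia, 18.0 (9.29 to 31.4) in neutrophils and 18.1 (13.9 to 23.1) in other cells. In Disc1LI/LI it had 66.0 (60.4 to 72.0), 50.4 (32.0 to 75.7), 3.15 (2.45 to 4.00) and 2.56 (1.88 to 3.42), and there Malat1-rich and Malat1-poor microglia were not separable, with a log2 difference of 0.39 (-0.21 to 1.06). Naalad2 in Disc1WT/WT had 55.5 (52.8 to 58.4) in Malat1-rich microglia, 60.7 (48.4 to 75.1) in Malat1-poor microglia, 22.5 (12.6 to 37.1) in neutrophils and 18.7 (14.4 to 23.7) in other cells. Its levels in Disc1LI/LI were 26.8 (23.3 to 30.7), 32.9 (18.4 to 54.2), 1.25 (0.825 to 1.82) and 1.39 (0.902 to 2.06). The excess of Naalad2 in Malat1-poor over Malat1-rich microglia was within counting error, at 0.13 (-0.21 to 0.44) on the log2 scale in Disc1WT/WT and 0.29 (-0.57 to 1.05) in Disc1LI/LI.

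The genes for proteins of the cytoskeleton and of junctions, Nav3 and Tjp1, were highest in Malat1-rich microglia by different margins. Nav3 in Disc1WT/WT had 244 (238.3 to 249.9) CPM in Malat1-rich microglia, 99.7 (83.7 to 118) in Malat1-poor microglia, 55.5 (39.1 to 76.4) in neutrophils and 29.1 (23.8 to 35.3) in other cells. In Disc1LI/LI it had 159 (150 to 168), 57.0 (37.2 to 83.5), 5.93 (4.95 to 7.05) and 5.46 (4.44 to 6.66). All 4 classes were separable for Nav3 in Disc1WT/WT. Tjp1 in Disc1WT/WT had 233 (227 to 238), 161 (141 to 184), 61.5 (44.1 to 83.4) and 57.7 (50.03 to 66.1) in the same order of classes. In Disc1LI/LI it had 128 (120 to 136), 121 (90.8 to 157), 5.05 (4.15 to 6.09) and 6.69 (5.55 to 7.999), so that its Malat1-rich and Malat1-poor levels differed by 0.085 (-0.31 to 0.50) on the log2 scale, which counting error covers.

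Detection in single cells followed the levels. A UMI of Plxdc2 was present in 92.6% of Malat1-rich microglia of Disc1WT/WT and 88.2% of those of Disc1LI/LI, and a UMI of Csmd3 in 56.7% and 35.7%. Tjp1 was detected in 60.6% and 39.1%, Nav3 in 58.2% and 44.0%, Atp8a2 in 37.8% and 24.2%, and Naalad2 in 18.4% and 9.08%. Since median depth was 4347 UMIs in Disc1WT/WT and 3866 in Disc1LI/LI, the shares were also taken after thinning each cell to 1000 UMIs, which left out the shallower cells (98 of 5739 in Disc1WT/WT and 11 of 1785 in Disc1LI/LI). They were then 54.6% and 46.3% for Plxdc2, 20.0% and 15.2% for Nav3, 18.9% and 13.02% for Tjp1, 18.5% and 11.0% for Csmd3, 9.64% and 6.48% for Atp8a2, and 4.80% and 2.71% for Naalad2. Each of the 6 shares was lower in Disc1LI/LI before and after thinning. Shares of cells were not taken for all genes. By level, 66.4% of 11056 genes were lower in Malat1-rich microglia of Disc1LI/LI, and nothing is read from the count of 6. In neutrophils, set beside microglia as another cell type of the same droplets, the unthinned share ran from 7.76% to 18.1% in Disc1WT/WT (median depth 4844.5 UMIs) and from 0.690% to 5.36% in Disc1LI/LI (median depth 4194 UMIs). Thinned, it reached 6.96% and 1.02% at most. The share of Naalad2 in Malat1-rich microglia of Disc1LI/LI, 9.08%, lay above the neutrophil shares of its own library but within those of Disc1WT/WT.

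Cells were then counted by how many of the genes they held. A UMI of at least 1 of the 6 was present in 98.6% of Malat1-rich and 86.2% of Malat1-poor microglia of Disc1WT/WT, against 25.9% of neutrophils and 45.7% of other cells. In Disc1LI/LI these shares were 97.1%, 75.8%, 7.92% and 13.7%. Thinned to 1000 UMIs a cell, they were 77.7%, 55.2%, 15.7% and 21.2% in Disc1WT/WT and 65.4%, 40.3%, 2.10% and 4.58% in Disc1LI/LI. UMIs of all 6 genes in the same cell were present in 165 Malat1-rich microglia of Disc1WT/WT and 7 of Disc1LI/LI. Whether the genes were found together more often than their single shares give was not tested.

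As a measure of how far microglia led, a gene was counted if its level in Malat1-rich microglia was at least 4-fold above both neutrophils and other cells. In Disc1WT/WT 4 of the 6 genes reached this, where 2.28% of the 11404 genes with enough UMIs did. The genes were chosen on these levels, so nothing is read from the contrast of the count with that share. Csmd3 was 10.1-fold above neutrophils, Atp8a2 6.01-fold, Plxdc2 4.87-fold and Nav3, just inside, 4.40-fold. Tjp1 was just outside, at 3.79-fold above neutrophils and 4.04-fold above other cells, and Naalad2 was at 2.47-fold and 2.98-fold. In Disc1LI/LI all 6 reached it, where 9.23% of 11488 genes did, at 20.9-fold to 32.2-fold above neutrophils and 19.1-fold to 46.9-fold above other cells.

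The levels outside microglia were set beside those of the 6 genes used to define microglia, since free RNA in a droplet can give UMIs of a gene in cells that do not express it. In Disc1WT/WT neutrophils the members of the set stood at 9.91% to 40.5% of their Malat1-rich level (median 21.6%), and the microglial markers at 15.1% to 17.8%. In Disc1LI/LI neutrophils they stood at 3.10% to 4.78%, and the markers at 2.82% to 3.29%. In other cells they stood at 11.9% to 33.6% in Disc1WT/WT and 2.13% to 5.23% in Disc1LI/LI, where the markers stood at 9.32% to 25.6% and 2.51% to 4.14%. The markers take part in the gates, so their levels outside microglia are limited by construction. The microglial genes C1qa, Cx3cr1 and Sparc, which the gates did not use, stood at 19.3% to 20.6% in neutrophils and 18.6% to 51.2% in other cells of Disc1WT/WT, and at 3.45% to 3.74% and 4.04% to 6.08% in those of Disc1LI/LI. The 6 genes ran over a wider range than these in Disc1WT/WT neutrophils, and whether free RNA gave their UMIs there was not tested.

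**Figure D2:**
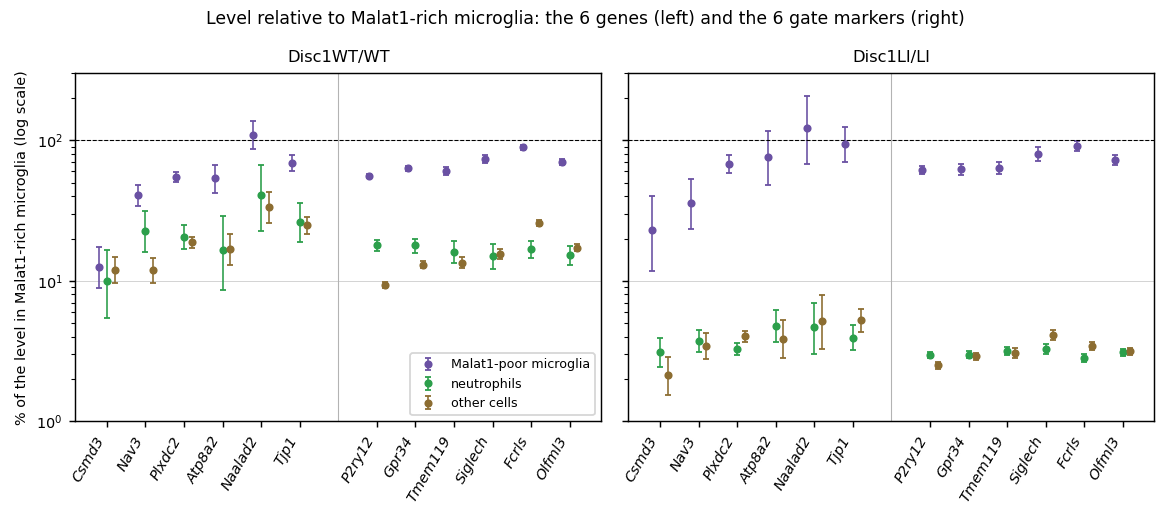
Level of each gene outside Malat1-rich microglia as a percent of its level in Malat1-rich microglia of the same library, on a log axis, for the 6 genes and the 6 microglial gate markers. In Disc1LI/LI neutrophils both sets lie between 2.82% and 4.78%, and Naalad2 in Malat1-poor microglia lies above 100%.

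In cells with under 0.1% of UMIs from the microglial markers, a selection added after the data were seen, little of the 6 genes was left. Choosing cells low in these markers also selects against other RNA of microglia, so low levels here were in part fixed in advance. The 89 such neutrophils of Disc1WT/WT, of 116, held 7 of the 229 UMIs that the 6 genes had in that class. Csmd3 and Atp8a2 were at 0 UMIs there, which allows up to 9.31 CPM for each by the Poisson interval. The 3444 such neutrophils of Disc1LI/LI, of 3622, held 0.504% to 1.29% of the Malat1-rich levels. The 1956 such other cells of Disc1LI/LI held 0.373% to 2.31%. The clearest remainder was that of Tjp1 in the 317 such other cells of Disc1WT/WT, at 35.6 CPM (27.1 to 46.0) or 15.3% of its Malat1-rich level, where the other 5 genes were at 0.742% to 7.61%. Other cells were also split by markers of a cell type, without the limit on microglial markers. The 141 border macrophage-like cells of Disc1WT/WT held 61.3 CPM of Plxdc2 (41.3 to 87.4) and 14.3 of Tjp1 (5.75 to 29.4). They had 0.237% of UMIs from the microglial markers. The 498 other cells of Disc1WT/WT that were given no type held more, at 201 of Plxdc2 (184 to 220) and 79.9 of Tjp1 (68.9 to 92.2). The 1158 monocyte-like cells of Disc1LI/LI held 10.1 of Plxdc2 (8.12 to 12.3) and 0.973 of Csmd3 (0.445 to 1.85).

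The levels were next compared between Malat1-rich and Malat1-poor microglia, a contrast that the choice of genes used. On the log2 scale, Malat1-rich over Malat1-poor in Disc1WT/WT, Csmd3 differed by 2.99 (2.52 to 3.49), Nav3 by 1.29, Atp8a2 by 0.90, Plxdc2 by 0.87, Tjp1 by 0.53 and Naalad2 by -0.13. At least 1.5-fold was reached by 4 of the 6, where 53.2% of 10775 genes reached it, and nothing is read from this contrast of shares. In Disc1LI/LI the differences were 2.13 (1.32 to 3.09) for Csmd3, 1.48 for Nav3, 0.55 for Plxdc2, 0.39 for Atp8a2, 0.085 for Tjp1 and -0.29 for Naalad2. There 2 of the 6 reached 1.5-fold, where 51% of genes did, and nothing is read from it either. The median gene was itself higher in Malat1-rich microglia, by 0.66 in Disc1WT/WT and 0.61 in Disc1LI/LI, so that Csmd3 and Nav3 lay above it in both libraries and Tjp1 and Naalad2 below it in both. Malat1-poor microglia had a higher median share of mitochondrial UMIs (1.98% against 0.829% in Disc1WT/WT, 1.62% against 0.668% in Disc1LI/LI) and of ribosomal protein UMIs (15.2% against 7.22% and 14.8% against 8.54%), and fewer UMIs (median 2699 and 2413). The part of these in the result was not tested. Scaling the class sums by the trimmed mean of M values (TMM) moved every gene's difference by -0.39 in Disc1WT/WT and -0.48 in Disc1LI/LI, so that the median gene then stood at 0.27 and 0.12 and the median of the 6 genes at 0.49 and -0.014, against 0.89 and 0.47 before. With each cell thinned to 1000 UMIs instead, 5 of the 6 genes reached 1.5-fold in Disc1LI/LI and the median of the 6 was 1.06. No share or median of all genes under thinning was taken for this contrast, so nothing is read from the count. Over the alternatives in Disc1LI/LI, Atp8a2 ran from -0.74 to 1.11, Tjp1 from -0.40 to 1.02 and Naalad2 from -0.78 to 0.15. None of these kept its direction. Naalad2 in Disc1WT/WT ran from -0.52 to 0.005.

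**Figure D3:**
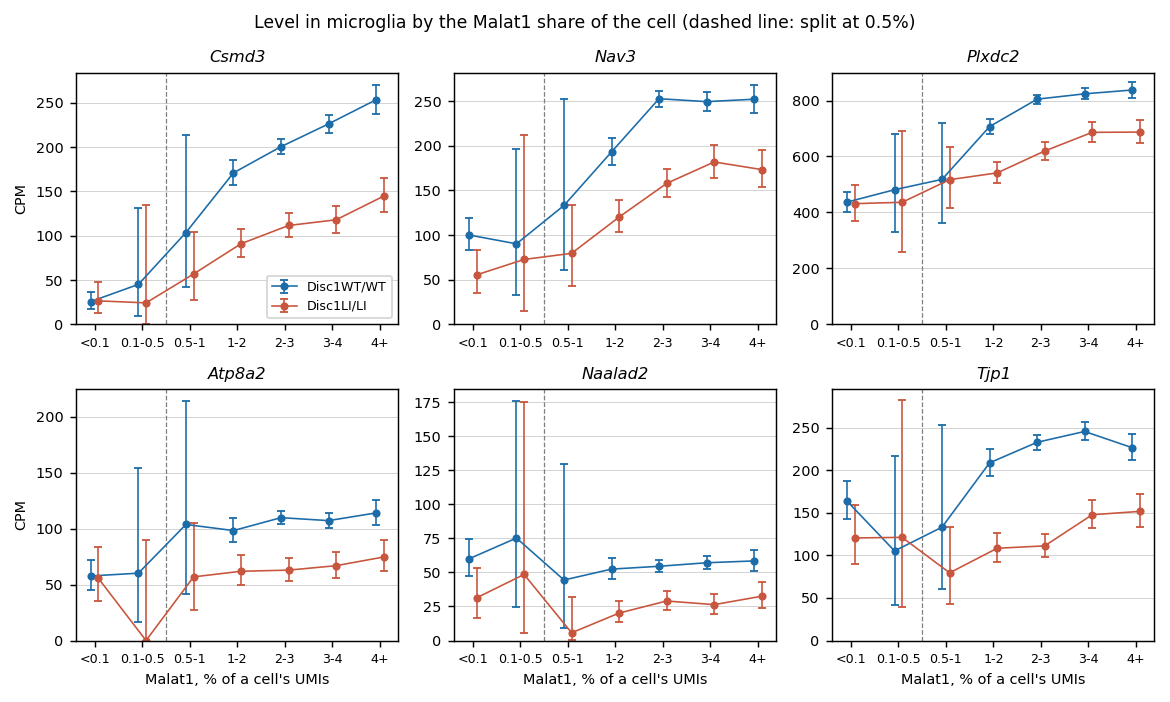
Levels of the 6 genes in microglia by the share of a cell's UMIs from Malat1, in CPM with 95% Poisson intervals for counting error. Csmd3 climbs from 25.8 in the lowest bin to 254 in the highest in Disc1WT/WT, while Naalad2 stays between 52.4 and 59.9 in the bins that hold over 400 cells.

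Across finer steps of Malat1, the genes divided in the same manner. Csmd3 in Disc1WT/WT stood at 25.8 CPM in the 418 microglia with under 0.1% of UMIs from Malat1, at 171 in those with 1 to 2%, at 201 with 2 to 3%, at 226 with 3 to 4% and at 254 with 4% or more. In Disc1LI/LI the same steps were 26.5, 91.0, 112, 118 and 145. The value of Csmd3 was thus higher at each step of Malat1 in both libraries. In Disc1LI/LI the intervals of neighboring steps from 1% upwards overlapped, at 76.1 to 108, 98.9 to 126, 104 to 134 and 127 to 165. Naalad2 had 59.9, 52.4, 54.5, 57.1 and 58.4 in Disc1WT/WT and 31.3, 20.2, 29.0, 26.3 and 32.5 in Disc1LI/LI, with no such order. Plxdc2 had 437, 707, 805, 824 and 838 in Disc1WT/WT and 431, 541, 620, 686 and 687 in Disc1LI/LI. In Disc1WT/WT most of the difference in Plxdc2 thus lay between the lowest bin and that of 1 to 2%. In Disc1LI/LI its rise went on to the bin of 3 to 4%. The bins between 0.1% and 1% held 13 to 37 cells each and are not read.

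The genotypes were then compared within Malat1-rich microglia, where the class, though not the library, was held fixed. All 6 genes were lower in Disc1LI/LI. The log2 difference, Disc1LI/LI minus Disc1WT/WT, with its 95% interval for counting error, was -1.05 (-1.27 to -0.84) for Naalad2, -0.88 (-0.99 to -0.78) for Csmd3, -0.86 (-0.96 to -0.77) for Tjp1, -0.71 (-0.85 to -0.58) for Atp8a2, -0.62 (-0.71 to -0.53) for Nav3 and -0.34 (-0.38 to -0.29) for Plxdc2. A difference of at least 1.5-fold was reached by 5 of the 6, all but Plxdc2. Of the 11056 genes with at least 50 UMIs, 17.7% were lower by as much, and since the levels in both genotypes were in view when the genes were chosen, nothing is read from the contrast. The median of the 6 was -0.79, beside -0.19 over all these genes, of which 66.4% were lower in Disc1LI/LI. None of these differences has a replicate check, since each genotype is a single pool.

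Genes were lower in Disc1LI/LI in step with their span in each of the cell classes, and the 6 genes were set beside others of like span. The median log2 difference in Malat1-rich microglia was 0.082 for the 2954 genes under 10 kb, -0.19 for those of 10 to 50 kb, -0.42 for 50 to 100 kb, -0.46 for 100 to 300 kb and -0.51 for the 192 genes over 300 kb, of which 88.5% were lower. The medians stepped down in the other cell classes too. Under 10 kb and over 300 kb they were 0.063 and -0.61 in Malat1-poor microglia. In neutrophils they were -0.0067 and -0.77, and in other cells 0.10 and -1.04. The step was thus also seen outside the microglial gate, in classes that were not alike between the libraries. Of the other cells, 39 of 736 in Disc1WT/WT and 1158 of 2245 in Disc1LI/LI were monocyte-like. Neutrophils held 0.203% of UMIs from the microglial markers in Disc1WT/WT and 0.0331% in Disc1LI/LI. The part of these in the step was not tested, nor was what gave it. In Malat1-rich microglia, beside the median of its own span class, Naalad2 stood at -0.63, Tjp1 at -0.40, Csmd3 at -0.38, Atp8a2 at -0.20, Nav3 at -0.11 and Plxdc2 at 0.17. Of the 6, 5 lay below the median of their span, in an order that counting error does not fully separate, and Plxdc2 lay above. By definition as many genes lie below a class median as above it. The 6 were chosen with these levels in view, so nothing is read from the count. The 10 longest genes with at least 50 CPM were Csmd3, Zfhx3, Celf2, March1, Inpp4b, Nav3, Zbtb20, Diaph2, Nav2 and Cdkal1. All 10 were lower in Disc1LI/LI, from -0.26 for Celf2 to -0.88 for Csmd3. All 10 were also higher in Malat1-rich than Malat1-poor microglia of Disc1WT/WT, from 0.58 for Diaph2 to 4.84 for Nav2. In that second contrast 93.0% of the genes over 300 kb were higher, and 19.5% of all genes were lower. Nothing is read from either count. The RNA-binding protein gene Celf2 and the transcription factor gene Zfhx3, at -0.26 and -0.29, were closer to the median of all genes than to that of their span. Medians by span also stepped in the Malat1 contrast, from 0.46 under 10 kb to 1.13 over 300 kb in Disc1WT/WT and from 0.32 to 1.19 in Disc1LI/LI, and Csmd3 and Nav3 exceeded the last of these in both libraries, while Plxdc2 and Atp8a2 did not.

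**Figure D4:**
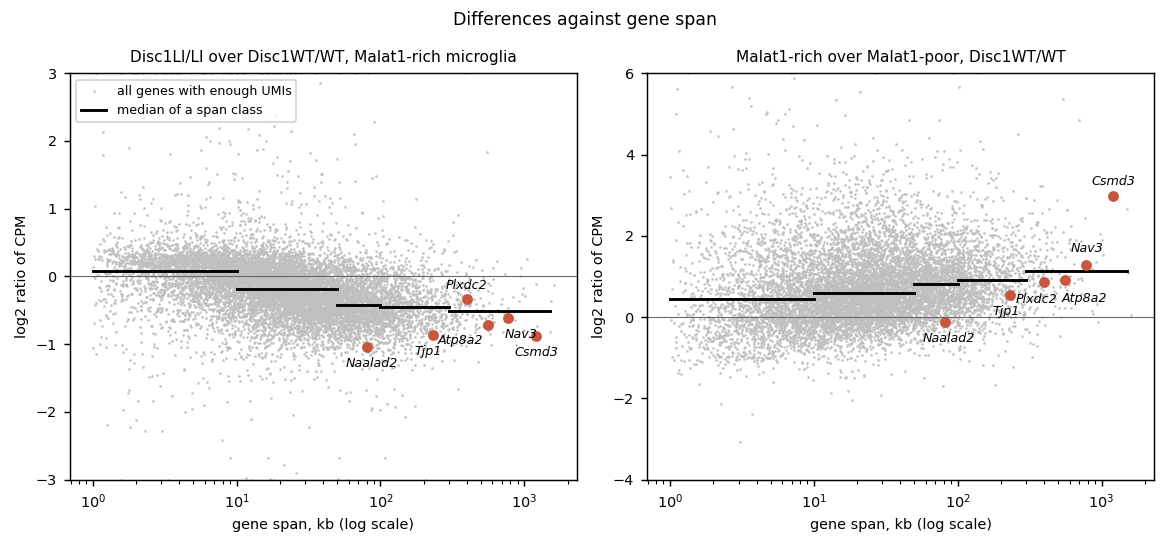
Log2 difference of each gene, plotted against its span in kb on a log axis, with the median of each span class as a black bar and the 6 genes marked. Genes under 1 kb are not drawn and points beyond the axis lie at its edge. In the genotype contrast the class medians step from 0.082 to -0.51, and Plxdc2 lies above the median of its class.

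The genotypes were also compared in parts of the Malat1-rich microglia. In 7 subsets (4 bins of Malat1 from 1% upwards, cells with a UMI of the immediate-early gene Fos, cells without one, and cells with neither interferon nor disease-associated markers), all 6 genes were lower, each with an interval below 0. The log2 differences ran from -1.38 to -0.85 for Naalad2, -1.08 to -0.81 for Csmd3, -1.07 to -0.58 for Tjp1, -0.80 to -0.61 for Atp8a2, -0.69 to -0.46 for Nav3 and -0.38 to -0.26 for Plxdc2. The subsets overlap and come from the same pools of mice, so they do not replicate each other. In all Malat1-rich microglia together 66.4% of genes were lower, as were 88.5% of those over 300 kb. Shares of all genes within the subsets were not taken, so nothing is read from the count. Csmd3 had 201 CPM (187 to 217) in the 580 Fos-positive and 213 (208 to 219) in the Fos-negative cells of Disc1WT/WT, and 95.1 (81.6 to 110) and 121 (113 to 131) in Disc1LI/LI. In interferon-marked cells, 52 in Disc1WT/WT and 17 in Disc1LI/LI, all 6 genes had lower values in Disc1LI/LI on 1 to 44 UMIs each there, with Csmd3 at 150 (102 to 211) and 61.7 (20.0 to 144). In the 8 and 3 disease-associated cells the genes went both ways, with Csmd3 on 6 and 0 UMIs but Plxdc2 at 705 (531 to 918) and 767 (249 to 1789), and Nav3 and Atp8a2 on 1 UMI each in Disc1LI/LI, too few cells to read.

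In Malat1-poor microglia the difference between genotypes rested on few UMIs. Nav3 was lower in Disc1LI/LI by a log2 difference of -0.81 (-1.47 to -0.19) and Naalad2 by -0.88 (-1.78 to -0.08). For Tjp1 (-0.42, -0.87 to 0.014), Atp8a2 (-0.20) and Plxdc2 (-0.024, at 439 against 432 CPM) the interval included 0, so no difference could be detected with these counts. Of these 5 genes 2 were lower by at least 1.5-fold, where 21.9% of 3944 genes were, a contrast from which nothing is read, and Csmd3, with 49 UMIs, had too few to be counted. Under the alternative gates and scalings the difference kept its sign for Nav3 (-1.07 to -0.66), Naalad2 (-1.49 to -0.66) and Tjp1 (-1.46 to -0.20). It turned for Csmd3 (-0.77 to 1.66), Atp8a2 (-0.93 to 0.99) and Plxdc2 (-0.23 to 0.28). With cells thinned to 1000 UMIs 5 genes were lower by at least 1.5-fold. The share of all genes was not taken there, so nothing is read from it. Over all kept cells the 6 genes were lower in Disc1LI/LI by log2 differences of -2.49 (Plxdc2) to -3.16 (Naalad2), with the median gene at -0.77, and the classes had different shares in the libraries. The values over all kept cells mix the share of microglia with the level of a gene inside them. Microglia were 87.9% of kept cells in Disc1WT/WT and 24.9% in Disc1LI/LI. Within Malat1-rich microglia alone the log2 differences were -0.34 (Plxdc2) to -1.05 (Naalad2). How much each adds to the values over all kept cells was not tested.

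Markers of other cells in Malat1-rich microglia differed between the libraries for some types. The 7 further neutrophil markers summed to 158 CPM in Disc1WT/WT and 605 in Disc1LI/LI. Csf3r alone gave 146 and 125 of these, so that the other 6 summed to 11.5 and 481, and none was at 0. The 4 hemoglobin genes summed to 3.00 and 18.8. The 7 neuronal markers summed to 2.86 and 3.24, with 1 and 3 of them at 0 UMIs. The 6 endothelial markers summed to 38.7 and 25.3, chiefly Pecam1, and the tight-junction gene Cldn5 had 7 and 3 UMIs. The 6 astrocyte markers summed to 289 and 258, nearly all from Slc1a3, while Gfap had 2 and 0 UMIs, and the 5 oligodendrocyte markers summed to 62.3 and 69.5. The 6 microglial gate markers summed to 11995 and 10973. Malat1 itself stood at 30064 and 30382 CPM. Among microglia with under 0.1% of UMIs from S100a8 and S100a9, the log2 differences between genotypes were -0.998 for Naalad2, -0.93 for Csmd3, -0.89 for Tjp1, -0.72 for Atp8a2, -0.63 for Nav3 and -0.37 for Plxdc2. The part of hemoglobin RNA and of the remaining neutrophil RNA in the lower levels was not tested.

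The relatives of the 6 genes were examined from lists of each family. Csmd3 was the Csmd gene of these microglia. In Malat1-rich microglia of Disc1WT/WT Csmd1 had 1 UMI and Csmd2 none, beside 5932 of Csmd3, and in Disc1LI/LI neither had any. All 3 navigator genes were detected, with Nav1 at 26.5 and 15.9 CPM in Disc1WT/WT and Disc1LI/LI and Nav2 at 289 and 228. In Malat1-poor microglia of Disc1WT/WT Nav2 had 10.1, so that its log2 difference between the classes of microglia was 4.84, beside 1.29 for Nav3. Plxdc1, the relative of Plxdc2, had 34.3 (32.2 to 36.6) in Disc1WT/WT and 33.1 (29.1 to 37.4) in Disc1LI/LI, intervals that overlap, where those of Plxdc2 do not.

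Among the P4-ATPase genes, Malat1-rich microglia of Disc1WT/WT held Atp8a1, the closest relative of Atp8a2, at 151 CPM (118 in Disc1LI/LI), Atp8a2 at 108 (66.0), Atp9b at 56.7 (33.2) and Atp11b at 49.0 (33.2). These 4 genes were each lower in Disc1LI/LI, as were 66.4% of 11056 genes, and nothing is read from the count. Atp8a2 was led by microglia, whereas Atp11b was higher in neutrophils, at 163 in Disc1WT/WT and 138 in Disc1LI/LI. Atp8b4 was found outside microglia, at 105 and 76.0 in neutrophils and 37.6 and 62.2 in other cells of Disc1WT/WT and Disc1LI/LI, with 14 and 15 UMIs in all in Malat1-rich microglia. Tmem30a, which encodes the partner that most P4-ATPases need to leave the endoplasmic reticulum, had 317 in Malat1-rich and 311 in Malat1-poor microglia of Disc1WT/WT, and 208 and 184 in Disc1LI/LI. Tmem30b had no UMI in Malat1-rich microglia, and the scramblase gene Xkr8 had 5.86 in Disc1WT/WT and 7.26 in Disc1LI/LI.

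Naalad2 was the only detected gene of its family in microglia. Folh1, Naaladl1 and Naaladl2 had no UMI in Malat1-rich microglia of either library, which by the Poisson interval allows up to 0.132 CPM in Disc1WT/WT and 0.478 in Disc1LI/LI. The genes around its substrate NAAG were near 0 as well. In Malat1-rich microglia of Disc1WT/WT the synthetase gene Rimkla had 1 UMI and Rimklb none, and Grm3, for a glutamate receptor that NAAG activates, had 7.

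Of the zonula occludens genes, Tjp3 was near 0 in Malat1-rich microglia, at 0.214 CPM in Disc1WT/WT and 0.259 in Disc1LI/LI, beside 233 and 128 for Tjp1. Of its 11 junction partners 5 reached 10 CPM in Malat1-rich microglia of Disc1WT/WT. The junctional adhesion molecule genes led, with F11r at 284 (224 in Disc1LI/LI), Jam2 at 111 (86.7) and Jam3 at 19.4 (21.6). Afdn, for an actin-binding adaptor of junctions, had 13.03 (12.7) and Marveld2 10.2 (8.17). Ocln, the gene for occludin, had 2.75 (1.43), so that Tjp1 was detected here with adhesion molecules of the immunoglobulin family and with little of the strand proteins occludin and claudin-5.

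Lastly, the genes with the pattern closest to each of the 6 were sought among 10693 genes with at least 200 UMIs, by Pearson's r of log2(CPM + 1) over 8 points, 4 classes in 2 libraries. The points of a library share its depth and free RNA, and r is given as a description. Csmd3 was closest to Mylip (0.996), Med12l (0.993) and Pik3r1 (0.992), and Nav3 to Usp22 (0.997), Bmf (0.995) and Rapgef5 (0.994). Plxdc2 was closest to the receptor genes Gpr34 (0.996) and P2ry13 (0.996) and to Capn3 (0.995). Gpr34 is among the gate markers, and for Atp8a2 (0.996) it came after Nckap1l (0.997) and Marcks (0.996). Naalad2 was closest to Tjp1 (0.989), Ulk2 (0.984) and Slc12a2 (0.979), and Tjp1 to Ulk2 (0.997), Spire1 (0.993) and Npnt (0.992). Tjp1 was the only member of the set among the 3 closest genes of another. Between members r ran from 0.844 for Csmd3 with Naalad2 to 0.994 for Plxdc2 with Atp8a2.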

How the data were processed

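Sorted CD45low CD11b+ brain cells of 6 pooled mice per genotype gave 1 scRNA-seq library per genotype. The deposited values are raw UMI counts, made by the authors with Cell Ranger 6.1.2 and STAR on mm10. Which of 2 chips served each library is not given in the sources used here.

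Counts were summed over the cells of a class and divided by the summed UMIs (CPM; Python 3.11.15 with pandas 2.3.3, scipy 1.17.1 and numpy 2.4.6). Levels have exact Poisson intervals, log2 ratios exact conditional binomial intervals, all at 95%. Differences were counted over genes with at least 50 UMIs in both groups together. A single pool per genotype allows no test between genotypes, and cells are not replicates, so the study's Wilcoxon test was not rerun. Doublets were not removed. Alternatives included TMM scaling (edgeR 4.0.16, R 4.3.3). The code was tested on simulated data.

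The genes named are the 6 members, their families (some family genes are not reported here), the 3 genes closest to each, the 10 longest genes, cell type markers, Disc1 and Malat1. Members and lists were chosen with earlier results of these data known.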

Additional observations from a re-analysis of the deposited data

How the results depend on the processing

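The 6 genes remained lower in Disc1LI/LI in Malat1-rich microglia under the 12 alternatives that change the filters, gates, splits or scalings of those cells, and their median of -0.79 moved by more than counting error only when each cell was thinned to 1000 UMIs (-0.64). The median of the 6 for Malat1-rich microglia over neutrophils was 4.70 in Disc1LI/LI. It became 4.40 in cells of 1000 genes or more and mitochondrial UMIs up to 5%. It was 5.18 as a mean over cells, 5.66 with thinning and 3.31 with TMM. Against neutrophils with under 0.1% of UMIs from microglial markers, an alternative chosen after seeing the data, it was 6.72. That rise was in part fixed by the choice of cells. In Disc1WT/WT it was 2.21 and became 2.96 as a mean over cells and 1.69 with TMM. With thinning, 5 genes instead of 2 were at least 1.5-fold higher in Malat1-rich than Malat1-poor microglia of Disc1LI/LI. The median was 1.06 instead of 0.47, and 5 instead of 2 were lower by as much in Malat1-poor microglia of Disc1LI/LI. Shares of all genes under thinning were not taken for these counts. With TMM, which moves all genes, 2 genes instead of 4 were at least 1.5-fold higher in Malat1-rich than Malat1-poor microglia of Disc1WT/WT. Their median over all 6 was 0.49 instead of 0.89. In Disc1LI/LI the median turned to -0.014, and 3 instead of 5 genes were highest in Malat1-rich microglia. The cause was not tested for thinning and cell means. A further 28 values of single genes moved and 284 did not; in Malat1-poor microglia with a gate at 1% the genotype difference turned to 1.66 for Csmd3, 0.99 for Atp8a2 and 0.28 for Plxdc2. No paired analysis was possible because each genotype has 1 library.

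Depth limits Malat1-poor microglia, where Csmd3 rests on 37 and 12 UMIs, and Disc1WT/WT neutrophils, where it rests on 14. With microglia gated at 0.25% to 1% of UMIs, cells near a limit change class, and 302 and 210 cells lay within 20% of the 0.5% limit. The share of all genes lower by at least 1.5-fold in Malat1-rich microglia of Disc1LI/LI depends on the minimum of UMIs, at 29.8% of 17353 genes with no minimum and 15.9% of 9153 with 200.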
